A study of Mus musculus with 6 samples.

Results

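The VEGF and angiopoietin axis was taken as 10 genes for secreted vessel growth factors and their receptors: the ligand genes Vegfa, Vegfb, Vegfc and Pgf, the VEGF receptor genes Flt1, Kdr and Flt4, the angiopoietin genes Angpt1 and Angpt2, and the angiopoietin receptor gene Tek. They were chosen by name, from 35498 genes in all, and each was measured and passed the filter on low counts. Poly-A RNA was sequenced from ventricular tissue below the ligature of 8 to 10 week old mice on day 7 after an infarct was made by tying off the left anterior descending artery. Mice of the CTL group (n = 3) were Postn CreER+/-; Runx1 WT, and mice of the Runx1_FB_KO group (n = 3) were Postn CreER+/-; Runx1 fl, all C57BL/6J and all on a tamoxifen diet from surgery until collection. Both groups thus carried the tamoxifen-inducible recombinase, driven from the periostin promoter, which is active in activated fibroblasts, so that cells without periostin keep Runx1 in both. CTL replicates 1, 2 and 3 were F, M and M, and Runx1_FB_KO replicates 1, 2 and 3 were M, F and F. The labels name replicates and not single animals, so p-values measure the spread between these samples.

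VEGF-A binds the receptor tyrosine kinases FLT1 and KDR. KDR carries most of its signal for endothelial growth, while FLT1 binds VEGF-A tightly but signals weakly, and its secreted form acts as a decoy. VEGF-B and placental growth factor (Pgf) bind FLT1, and VEGF-C binds FLT4, the receptor best known for lymphatic growth. Angiopoietin 1, made by mural and other mesenchymal cells, activates TEK and stabilises vessels, whereas angiopoietin 2, made by endothelium that is being remodelled, can oppose it. In heart, muscle cells are a known source of VEGF-A and VEGF-B.

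The libraries held 16598561 to 19987279 estimated reads, and Runx1_FB_KO replicate 3 stood apart from the other knockout libraries. Levels are given as CPM, the estimated reads of a gene as a share of a library size scaled by edgeR's TMM method. Runx1, the targeted gene, was at 96.4, 86.9 and 85.5 CPM in CTL replicates 1, 2 and 3 and at 17.5, 10.9 and 67.4 CPM in the knockout (log2 fold change -1.48, SE 0.63, edgeR adjusted p = 0.154, and -2.61 without Runx1_FB_KO replicate 3). Heart muscle markers were present in all 6 libraries, as the label requires, but at unequal levels. The 16 cardiomyocyte markers summed to 15116 to 19564 CPM in CTL and to 106459, 131103 and 36834 CPM in Runx1_FB_KO replicates 1, 2 and 3. Activated fibroblast markers (14 genes) summed to 47145 to 50619 CPM in CTL and to 12407, 10526 and 41591 CPM in the knockout, and 12 macrophage markers to 3434 to 5458 CPM and to 1432, 1376 and 3481 CPM. Endothelial markers (20 genes) summed to 1824 to 1993 CPM in CTL and 1885 to 2135 CPM in the knockout. Mitochondrially encoded genes took 5.36% to 7.11% of reads in CTL and 10.4% to 24.5% in the knockout. No marker of these lists was at 0 in any library. The part of these differences in the results below was not tested, and in bulk tissue fewer cells of a type cannot be told apart from less RNA per cell.

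None of the 10 genes passed an adjusted p of 0.05 in edgeR with all 6 libraries, and neither did any other gene (0 of 14237, 0.0%). At an unadjusted p under 0.05, 4 of the 10 were higher in the knockout (Vegfa, Vegfb, Flt1 and Kdr) and 1 was lower (Angpt2), where 19.3% of all genes were higher and 13.1% lower. All knockout values lay above all CTL values for the same 4 genes, beside 20.2% of all genes, and below all CTL values for 2 genes, Pgf and Angpt2, beside 18.8%. Without Runx1_FB_KO replicate 3, edgeR called 5 of the 10: Vegfa, Vegfb, Flt1 and Kdr rose and Angpt2 fell, in a comparison where 25.1% of all genes rose and 22.5% fell. With any other single library left out, edgeR called none of the 10 and no other gene. DESeq2 on all 6 libraries called those 4 higher genes and no lower one, where it called 14.6% of all genes higher and 5.04% lower. With no filter on low counts, and also at an adjusted p under 0.1, edgeR called the same 4 genes higher and none of the 10 lower. No filter gave 4.21% of all genes higher and 0.193% lower, and the threshold of 0.1 gave 12.5% and 3.74%. The median log2 fold change of the 10 genes was 0.32, against -0.06 for all genes tested, and it ran from 0.19 without CTL replicate 1 to 0.49 without Runx1_FB_KO replicate 3. With scaling by library size alone both medians were lower, -0.17 for the 10 genes and -0.52 for all genes.

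**Figure D1:**
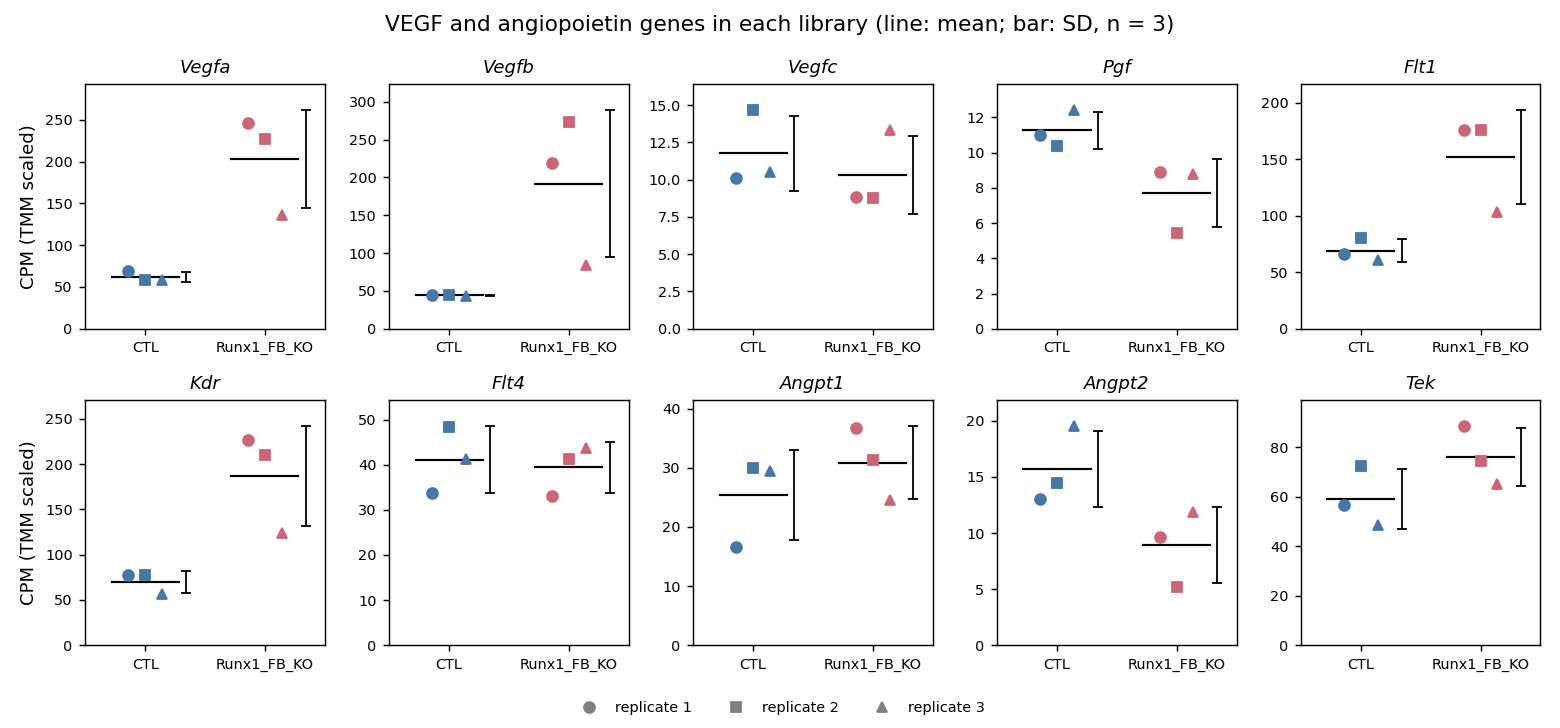
Level of each of the 10 genes in every library, in CPM after TMM scaling, on linear axes that start at 0, with a point per library, a line at the group mean and a bar for the SD (n = 3 per group). For Vegfa, Vegfb, Flt1 and Kdr all knockout points lie above all CTL points, with replicate 3 the lowest of the knockout, and for Pgf and Angpt2 all lie below.

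Transcripts of Vegfa and Flt1 differ in parts of the coding sequence that decide where the protein goes. Vegfa (GRCm38 chr17:46016993-46032369, minus strand) has 3 coding transcripts with reads. Vegfa-201 encodes 146 residues, the precursor of the diffusible short form. Vegfa-202 adds an exon at chr17:46020991-46021122 that helps to bind heparan sulfate and neuropilin, and Vegfa-207 adds a further, strongly basic exon at chr17:46022277-46022348 that holds the protein at the cell surface and matrix. Vegfa-202 and Vegfa-207 are annotated from an upstream CTG start codon, with 368 and 392 residues. Flt1 (chr5:147561604-147726011, minus strand) has the full receptor Flt1-202, with 1333 residues, and Flt1-203, with 688 residues, which ends in coding sequence read from an intron at chr5:147639133-147639224 and lacks the membrane span and kinase, as the soluble form does. The upstream start gives Vegfa-202 and Vegfa-207 534 further coding bases, and Flt1-202 holds further coding stretches that Flt1-203 lacks. The coding stretches below are shown because they help to tell the coding sequences apart. They were read from the GENCODE M21 transcripts (GRCm38), 5′ to 3′ on the strand of the gene, with no capitals since the whole stretch matters:
Vegfa exon present in Vegfa-202 and absent from Vegfa-201: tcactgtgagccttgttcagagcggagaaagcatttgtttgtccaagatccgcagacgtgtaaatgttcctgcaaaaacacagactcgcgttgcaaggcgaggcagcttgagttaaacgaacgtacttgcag
Vegfa exon present in Vegfa-207 and absent from Vegfa-202: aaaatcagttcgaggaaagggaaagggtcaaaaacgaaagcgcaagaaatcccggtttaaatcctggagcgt
Flt1 coding end of Flt1-203, absent from the coding sequence of Flt1-202: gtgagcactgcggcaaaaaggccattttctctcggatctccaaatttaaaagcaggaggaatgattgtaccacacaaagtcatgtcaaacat

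Among the ligands, Vegfa and Vegfb were higher in each knockout library than in any CTL library. Vegfa was at 69.0, 58.4 and 58.9 CPM in CTL replicates 1, 2 and 3 and at 246, 227 and 136 CPM in Runx1_FB_KO replicates 1, 2 and 3. The lowest knockout library thus lay well above the highest CTL library. The log2 fold change of Vegfa came to 1.71 (SE 0.26, edgeR adjusted p = 0.0682), and to 1.97 (edgeR adjusted p = 7.6e-05) without Runx1_FB_KO replicate 3. Vegfb (chr19:6982473-6987651, minus strand), whose product binds FLT1 but not KDR, was at 44.0, 44.9 and 43.6 CPM in CTL and at 219, 273 and 83.7 CPM in the knockout. The CTL libraries were nearly equal (SD 0.67 CPM), while the knockout libraries spread widely (SD 97.4 CPM). For Vegfb the log2 fold change came to 2.12 (SE 0.41, edgeR adjusted p = 0.0682) with all libraries and to 2.52 (edgeR adjusted p = 7.3e-05) without Runx1_FB_KO replicate 3. With any other single library left out, the edgeR adjusted p of both genes was 0.178 to 0.264. In both genes the lowest knockout library was replicate 3. Among the knockout libraries, replicate 3 also had the smallest sum of cardiomyocyte markers, the most Runx1 and the largest sums of fibroblast and macrophage markers. The part of each of these traits was not tested.

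The ligand genes Vegfc and Pgf were at lower levels and did not share this pattern. Vegfc (chr8:54077606-54187096, plus strand) was at 10.1, 14.7 and 10.5 CPM in CTL and at 8.84, 8.74 and 13.3 CPM in the knockout, so the groups overlapped. On the log2 scale it differed by -0.19 (SE 0.26, edgeR adjusted p = 0.62), and by 0.00 without CTL replicate 2, the highest of the CTL libraries. Pgf (chr12:85166635-85177790, minus strand), which of the VEGF receptors binds FLT1 alone, was at 11.0, 10.4 and 12.4 CPM in CTL and at 8.90, 5.46 and 8.78 CPM in the knockout. No knockout value of Pgf reached a CTL value, but the log2 fold change of -0.54 (SE 0.25) had an edgeR adjusted p of 0.175 with all libraries and 0.0949 without Runx1_FB_KO replicate 3. Coverage was low, with 70.2 estimated reads of Pgf in Runx1_FB_KO replicate 2. Vegfd, a further ligand of FLT4 outside the 10 genes, was at 23.4, 38.7 and 42.0 CPM in CTL and at 15.3, 8.98 and 21.3 CPM in the knockout (log2 fold change -1.18, SE 0.36, edgeR adjusted p = 0.0925).

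Of the VEGF receptor genes, Flt1 and Kdr were higher in each knockout library and Flt4 was not. Flt1 was at 66.3, 80.6 and 60.4 CPM in CTL and at 175, 176 and 103 CPM in the knockout. Kdr (chr5:75932827-75978458, minus strand) was at 77.3, 77.1 and 56.3 CPM in CTL and at 226, 210 and 124 CPM in the knockout. In both genes Runx1_FB_KO replicate 3 was the knockout library nearest to CTL, yet above it. The log2 fold changes were 1.13 (SE 0.25) for Flt1 and 1.41 (SE 0.27) for Kdr, each with an edgeR adjusted p of 0.0682. Without Runx1_FB_KO replicate 3 they were 1.39 and 1.68, with edgeR adjusted p of 0.00036 and 0.000258. With any other single library left out, the edgeR adjusted p of both genes was 0.178 to 0.264. Flt4 (chr11:49609263-49652739, plus strand) was at 33.7, 48.4 and 41.3 CPM in CTL and at 33.1, 41.3 and 43.7 CPM in the knockout, with a log2 fold change of -0.06 (SE 0.19, edgeR adjusted p = 0.828). Its direction turned without CTL replicate 2 (0.07) and without Runx1_FB_KO replicate 1 (0.05).

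In the angiopoietin branch, Angpt2 was lower in each knockout library, while Angpt1 and Tek overlapped. Angpt2 (chr8:18690263-18741562, minus strand) was at 13.1, 14.4 and 19.5 CPM in CTL and at 9.62, 5.23 and 11.9 CPM in the knockout. For Angpt2 the log2 fold change came to -0.81 (SE 0.33, edgeR adjusted p = 0.146) with all libraries and to -1.03 (edgeR adjusted p = 0.0306) without Runx1_FB_KO replicate 3. Angpt2 had the fewest reads of the 10 genes in any library, 67.0 in Runx1_FB_KO replicate 2. A narrow gap lay between Runx1_FB_KO replicate 3 and CTL replicate 1. Angpt1 (chr15:42424723-42676977, minus strand) was at 16.6, 30.0 and 29.5 CPM in CTL and at 36.7, 31.4 and 24.6 CPM in the knockout (log2 fold change 0.29, SE 0.27, edgeR adjusted p = 0.468). The receptor gene Tek (chr4:94739289-94874976, plus strand) was at 56.4, 72.3 and 48.5 CPM in CTL and at 88.3, 74.5 and 65.0 CPM in the knockout (log2 fold change 0.36, SE 0.20, edgeR adjusted p = 0.237). With scaling by library size alone, Angpt1 and Tek had log2 fold changes of -0.21 and -0.12.

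**Figure D2:**
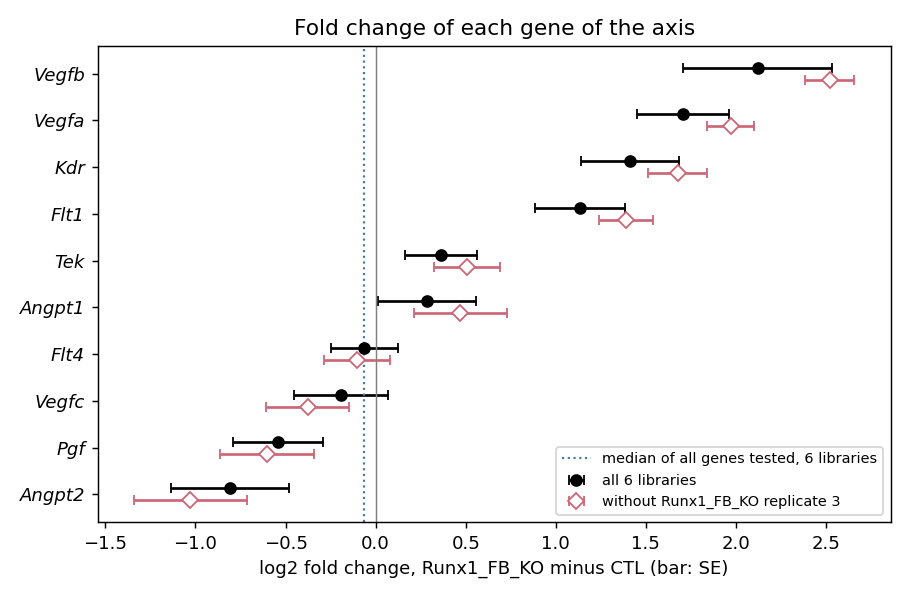
Log2 fold change of each of the 10 genes (Runx1_FB_KO minus CTL) from edgeR with its SE, with all 6 libraries (filled circles) and without Runx1_FB_KO replicate 3 (open diamonds), beside the median of all genes tested (dotted line at -0.06). Vegfb, Vegfa, Kdr and Flt1 lie between 1.13 and 2.12 with all libraries, and Angpt2 is the lowest at -0.81.

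Levels per transcript length, given as TPM, in which reads are divided by transcript length, placed the ligands Vegfb and Vegfa first in both groups. In CTL, Vegfb was at 83.6 ± 1.43 TPM and Vegfa at 55.7 ± 10.9 TPM (SD, n = 3), and both were separate from each other and from the rest. Tek (21.5 ± 4.07 TPM), Kdr (19.7 ± 2.99), Flt1 (17.1 ± 2.30), Pgf (13.9 ± 1.75), Flt4 (11.3 ± 1.96), Angpt1 (10.3 ± 3.17), Angpt2 (9.12 ± 4.50) and Vegfc (8.82 ± 1.73) followed. The range of each of these 8 genes overlapped that of the next. In the knockout the order was Vegfb (202 ± 62.6 TPM), Vegfa (106 ± 7.47), Kdr (30.5 ± 1.51), Flt1 (21.9 ± 0.47) and Tek (17.0 ± 3.69), with no overlap between neighbours. Angpt1 (7.57 ± 1.17 TPM), Flt4 (6.88 ± 3.15), Pgf (6.25 ± 2.80), Vegfc (5.14 ± 3.13) and Angpt2 (2.86 ± 1.92) came after Tek, and each overlapped the next. By its mean, Tek thus stood before Kdr and Flt1 in CTL, where the ranges overlapped, and after them in the knockout. TPM serves here to order genes within a group, since it is not scaled between libraries as CPM is. Mean TPM of Tek and Angpt1 was lower in the knockout, but mean CPM was higher. Tek had 59.1 CPM in CTL and 75.9 in the knockout, and Angpt1 had 25.3 and 30.9. The TPM of Vegfa includes 5 short transcripts annotated as retained introns, and that of Angpt2 in CTL replicate 3 (14.3 TPM) includes 36.9% from a short processed transcript with 25.3 reads.

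Ratios of TPM within a library do not depend on the scaling between libraries. The log2 ratio of Angpt2 to Angpt1 was -0.10, -0.80 and 0.20 in CTL replicates 1, 2 and 3, against -1.70, -2.35 and -0.81 in the knockout, so that CTL replicate 2 and Runx1_FB_KO replicate 3 nearly met. The value of CTL replicate 3 is raised by the short processed transcript, which held 36.9% of the Angpt2 TPM there. The log2 ratio of Pgf to Vegfa was -2.35, -1.89 and -1.75 in CTL, against -4.32, -4.69 and -3.52 in the knockout. That of Vegfc to Vegfa was -3.16, -2.10 and -2.72 in CTL, against -5.07, -4.89 and -3.61 in the knockout. In these 3 ratios the second ligand weighed more in every knockout library than in any CTL library. The log2 ratio of Flt1 to Kdr was -0.41, -0.11 and -0.08 in CTL, against -0.55, -0.44 and -0.44 in the knockout, a mean difference of -0.28. Between Tie1, the gene of the orphan partner of TEK, and Tek the log2 ratio was 1.34, 0.85 and 1.34 in CTL, against 0.61, 0.74 and 0.99 in the knockout, and the groups overlapped. Of the 5 ratios tested, 4 had a two-sided exact permutation p of 0.1, the smallest that 3 against 3 libraries can give, and Tie1 to Tek had 0.2 (exact permutation, adjusted over the 5 ratios to 0.125 and 0.2). With ratios of estimated counts the groups overlapped for Angpt2 to Angpt1 (difference -1.19, exact permutation p = 0.2).

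The receptors were also set against the mean log2 CPM of the 20 endothelial markers in the same library, a comparison chosen after the values were seen and given with no test. Relative to these markers, Kdr was at 0.33, 0.21 and -0.19 on the log2 scale in CTL replicates 1, 2 and 3, against 1.91, 1.77 and 0.997 in the knockout. Flt1 was at 0.11, 0.28 and -0.10 in CTL, against 1.54, 1.52 and 0.73 in the knockout. Both stood higher against the endothelial markers in every knockout library than in any CTL library. The mean differences, knockout minus CTL, were 1.44 for Kdr, 1.17 for Flt1, 0.44 for Tek, 0.01 for Flt4, -0.80 for Angpt2 and 0.06 for Tie1. The groups overlapped for Tek, Flt4 and Tie1. Ptprb, the gene of the phosphatase that acts on TEK, differed by 0.69 and Plvap, which encodes a protein of endothelial diaphragms, by -1.46, both without overlap. Of the 20 endothelial markers themselves, 7 had positive and 13 negative log2 fold changes, with a median of -0.11. At an unadjusted p under 0.05, 1 was higher (Ly6c1, 0.95, SE 0.30) and 2 were lower (Ecscr, -1.02, SE 0.30, and Cldn5, -0.50, SE 0.19), and 0 of 20 passed the adjusted threshold in edgeR. Of all genes, 19.3% were higher and 13.1% lower at that unadjusted p. Fabp4, a fatty acid carrier of capillary endothelium, had 0.54 (SE 0.33, edgeR adjusted p = 0.274), with overlap, and Ly6c1 overlapped as well. All knockout values lay above all CTL values for 0 of the 20 markers, beside 20.2% of all genes. They lay below for 5, beside 18.8%.

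**Figure D3:**
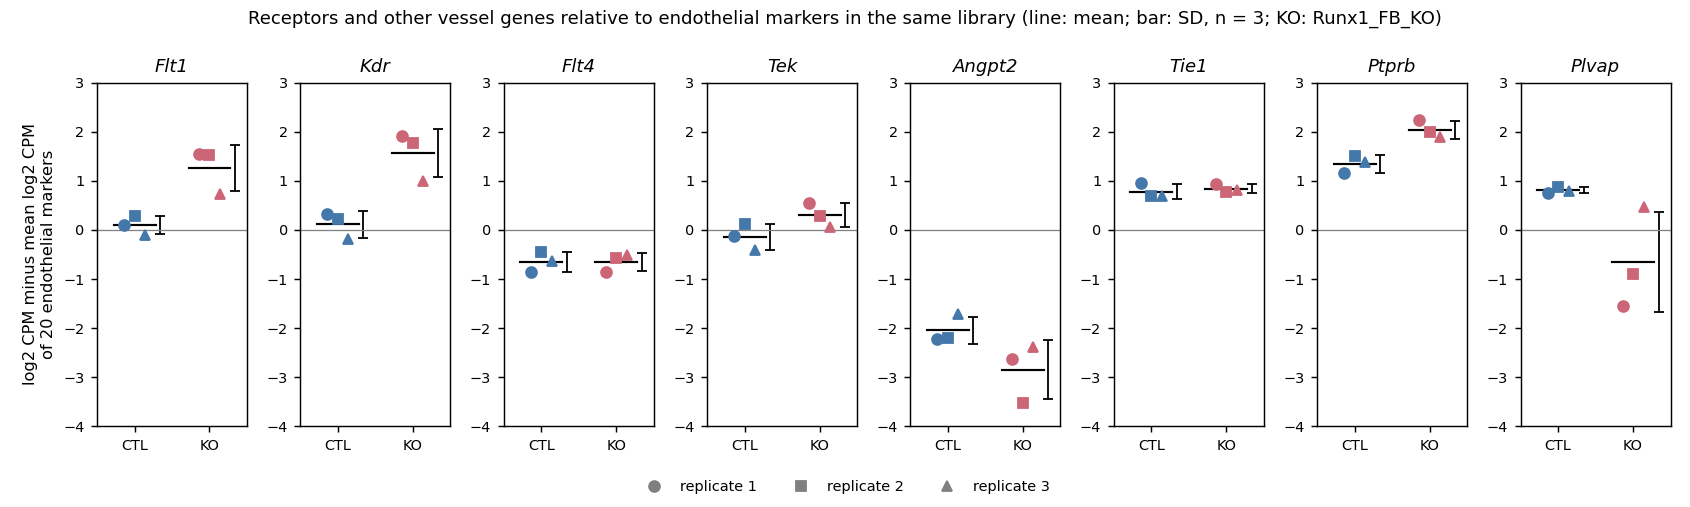
Log2 CPM of 8 vessel genes minus the mean log2 CPM of 20 endothelial markers in the same library, with a point per library, a line at the group mean and a bar for the SD (n = 3). Kdr and Flt1 stand higher in the knockout by 1.44 and 1.17, Flt4 and Tie1 by 0.01 and 0.06, and Angpt2 and Plvap stand lower.

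By Salmon's division of the reads, the short Vegfa form took a smaller share in each knockout library than in any CTL library. Vegfa-201 held 22.7%, 13.5% and 36.2% of the coding-transcript TPM of Vegfa in CTL replicates 1, 2 and 3, against 9.74%, 7.81% and 11.4% in the knockout. Vegfa-202 held 51.8%, 55.7% and 37.4% in CTL, against 66.1%, 63.2% and 60.1% in the knockout, also without overlap. Vegfa-207 held 24.2% to 30.8% across the 6 libraries, and there the groups overlapped. In reads, not scaled between libraries, Vegfa-201 was at 308.5, 161.9 and 393.9 in CTL, against 305.0, 200.5 and 261.2 in the knockout. Vegfa-202 was at 890.3, 842.9 and 516.1 in CTL, against 2615.0, 2047.3 and 1743.4 in the knockout. TMM factors were 1.157 to 1.214 in CTL and 0.765, 0.732 and 1.078 in Runx1_FB_KO replicates 1, 2 and 3. Equal reads are thus a higher CPM in the knockout, most of all in replicates 1 and 2. Most of the difference in estimated reads of Vegfa lay with Vegfa-202. It holds the first of the printed Vegfa exons, as Vegfa-207 also does, and lacks the second. These shares carry no test, because the 3 transcripts also differ in their ends and the uncertainty of the division was not analysed here.

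For the other genes with several coding transcripts, the shares overlapped between the groups, except for Tek-201. The soluble form Flt1-203 held 30.9%, 34.6% and 32.7% of coding TPM in CTL, against 29.2%, 26.6% and 33.5% in the knockout, so the groups overlapped. Its reads were 427.4, 584.6 and 368.6 in CTL, against 722.8, 553.7 and 630.2 in the knockout. Those of the full receptor were 1063.6, 1221.7 and 844.6, against 1954.1, 1701.8 and 1393.9. These reads too are not scaled between libraries, and equal reads are a higher CPM in the knockout. Vegfb has a form of 188 residues that binds heparan sulfate (Vegfb-202) and a freely diffusing form of 207 residues (Vegfb-201). Vegfb-202 held 52.7% to 55.3% in CTL and 49.6% to 56.4% in the knockout. Tek-201 held 6.98%, 18.5% and 11.5% in CTL, against 37.8%, 25.2% and 27.2% in the knockout, without overlap. It differs from Tek-203 by 1 residue in the coding sequence, but the transcripts are 4176 and 4654 bases long. The shares of Tek-202 and Tek-203 overlapped. Kdr, Flt4, Vegfc, Angpt1 and Angpt2 had a single coding transcript with reads, and nearly all coding reads of Pgf fell on Pgf-201.

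**Figure D4:**
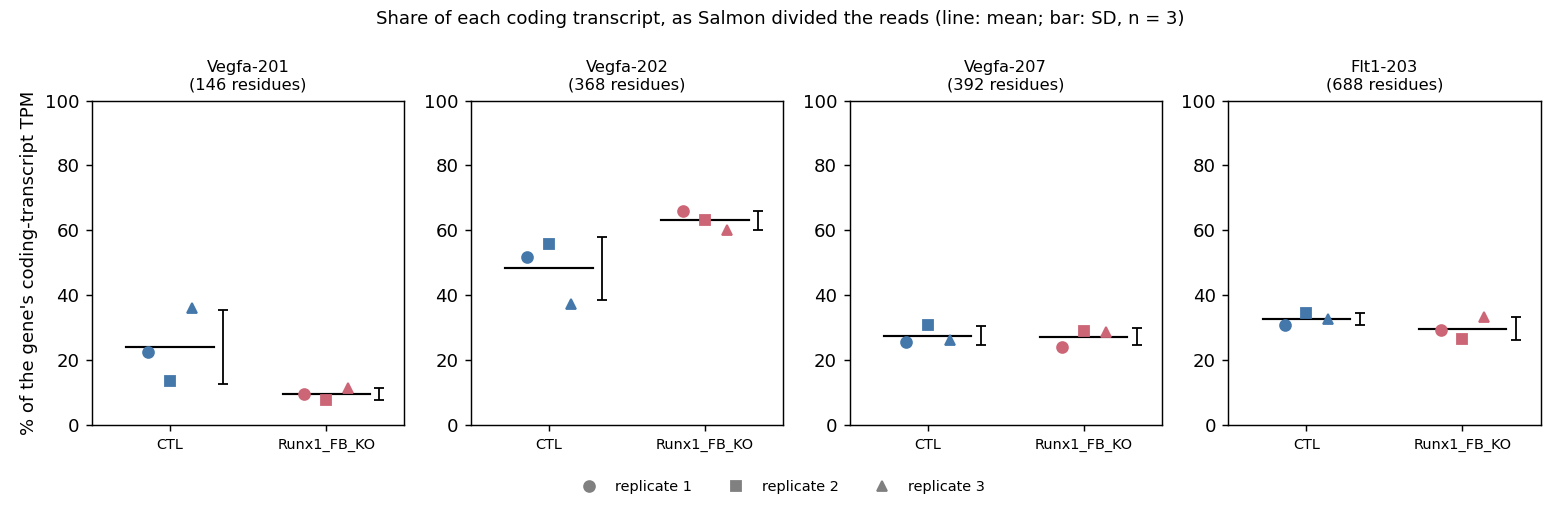
Percent of a gene's coding-transcript TPM held by each of 4 transcripts, on axes from 0 to 100, with a point per library, a line at the group mean and a bar for the SD (n = 3). Vegfa-201 runs from 13.5% to 36.2% in CTL and from 7.81% to 11.4% in the knockout, and the groups overlap for Vegfa-207 and for soluble Flt1-203.

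Promoters were read from RefSeq (GRCm38.p6), which holds 10 windows for 8 of the 10 genes, each of 250 bases before and 50 after a start site. The letters TGTGGT or TGCGGT, the core bound by RUNX factors, were searched on both strands and occur in 22.4% of 32851 promoter windows of that length. They were found for 2 genes, Flt1 (at -188 from the start site) and Pgf (at 44). The letters ACGTG or GCGTG, the core bound by HIF factors, occur in 43.8% of the windows. They were found for 5 genes: Kdr (at -131 and -89), Flt1 (at -184, overlapping the RUNX match), Vegfb, Vegfa and Pgf. Vegfa and Pgf each had a further window without a match, for Vegfa the one at the 5′ end of the gene. The matches of Vegfa lay in the window of a start site inside the gene, at chr17:46025163. These counts are of genes, while the shares are of windows. The parts before the start site of Kdr and Flt1, the receptors that were higher in the knockout, are shown 5′ to 3′ on the strand of the gene, minus for both, with every match in capitals. A match describes letters in a window and is not a measured site:
Kdr promoter, chr5:75978456-75978705: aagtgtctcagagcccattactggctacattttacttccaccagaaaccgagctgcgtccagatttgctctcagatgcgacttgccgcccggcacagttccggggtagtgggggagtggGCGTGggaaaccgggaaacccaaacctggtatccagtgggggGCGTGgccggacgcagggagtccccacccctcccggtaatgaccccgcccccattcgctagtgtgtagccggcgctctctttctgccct
Flt1 promoter, chr5:147726012-147726261: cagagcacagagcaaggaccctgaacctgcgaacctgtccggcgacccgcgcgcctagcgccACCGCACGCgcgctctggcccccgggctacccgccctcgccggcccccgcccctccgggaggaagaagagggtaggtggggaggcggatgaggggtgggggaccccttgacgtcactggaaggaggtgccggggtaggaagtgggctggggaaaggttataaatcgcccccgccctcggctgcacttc

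Co-receptors and modulators of the axis formed a list of 16 further genes. With all libraries 0 of 16 passed in edgeR after adjustment, 3 were higher and 1 lower at an unadjusted p under 0.05, and the median log2 fold change was -0.31, against -0.06 for all genes. At that unadjusted p 19.3% of all genes were higher and 13.1% lower. Gpc1, a heparan sulfate proteoglycan that binds VEGF-A, was at 139, 138 and 135 CPM in CTL and at 425, 435 and 185 CPM in the knockout (log2 fold change 1.34, SE 0.34, edgeR adjusted p = 0.0724). Nrp1, the co-receptor of KDR, was at 96.3 ± 10.7 CPM in CTL, against 137 ± 24.4 CPM in the knockout (SD, n = 3), and Ptprb at 164 ± 26.1 and 252 ± 27.3 CPM. For these 3 genes of the 16 every knockout value lay above every CTL value, beside 20.2% of all genes. For 1, Vegfd, every knockout value lay below, beside 18.8%. Nrp2, the co-receptor of FLT4, was at 103 ± 19.8 and 83.2 ± 22.9 CPM, and Tie1 at 110.4 ± 7.80 and 109.7 ± 5.57 CPM, with overlap. The activators of VEGF-C, Ccbe1 and Adamts3, differed by -0.25 (SE 0.22) and 0.28 (SE 0.26) on the log2 scale. Svep1, whose product is a matrix ligand of TIE1, had -0.67, the integrin gene Itgb3 -0.89, the perlecan gene Hspg2 -0.37, and the semaphorin receptor gene Plxnd1 -0.43. The semaphorin genes Sema3a, Sema3c and Sema3f had -0.41, -0.13 and -0.32. Angpt4 was near the limit of detection, at 1.73 ± 0.88 CPM in CTL, against 0.46 ± 0.46 CPM in the knockout. Without Runx1_FB_KO replicate 3, edgeR called 3 of the 16 higher (Gpc1, Nrp1 and Ptprb) and 7 lower (Vegfd, Nrp2, Svep1, Plxnd1, Sema3f, Hspg2 and Itgb3), with a median of -0.52. In that comparison 25.1% of all genes were called higher and 22.5% lower.

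Genes that carry or answer the receptors' signals had no common direction with Vegfa and Kdr. Of 28 signal relays, 14 had positive and 14 negative log2 fold changes, with a median of 0.01 that was -0.05 without Runx1_FB_KO replicate 2 and 0.06 without Runx1_FB_KO replicate 3. At an unadjusted p under 0.05, 2 were higher and 4 lower, all knockout values lay above all CTL values for 3 and below for 7, and 0 of 28 passed the adjusted threshold in edgeR. Of all genes, 19.3% were higher and 13.1% lower at that unadjusted p. All knockout values lay above all CTL values for 20.2% of all genes and below for 18.8%. Pik3r1, a subunit of the kinase PI3K, had 1.18 (SE 0.33) and Mapkapk2 had 0.84 (SE 0.29), while Mapk3 (ERK1) had -0.62 (SE 0.19). Sh2d2a, an adaptor of KDR and T cells, had -2.28 (SE 0.58) at 1.68 CPM in CTL, against 0.33 CPM in the knockout. Of 18 genes known to respond to VEGF in endothelium or to mark sprouting tip cells, 5 had positive and 13 negative log2 fold changes, with a median of -0.52. At an unadjusted p under 0.05, 0 of the 18 were higher and 4 were lower, among them the basement membrane gene Nid2 (74.1 ± 6.49 CPM in CTL, 38.4 ± 11.1 CPM in the knockout, SD, n = 3) and Adamts1 (-0.82, SE 0.29). The Notch ligand gene Dll4 had 0.27 (SE 0.27) and Dusp5 0.56 (SE 0.27). Without Runx1_FB_KO replicate 3, edgeR called 1 of these 18 genes higher and 8 lower, with a median of -1.001, while without Runx1_FB_KO replicate 2 the median was -0.28. Of all genes, 25.1% were called higher and 22.5% lower without Runx1_FB_KO replicate 3. In Runx1_FB_KO replicate 3 the 18 genes summed to 872 CPM, beside 843 to 864 CPM in CTL and 441 and 406 CPM in Runx1_FB_KO replicates 1 and 2. In bulk tissue the reads of these 18 genes need not come from endothelium. The part of the unequal cell type markers in these values was not tested.

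Oxygen-sensing and hypoxia-responsive genes, a pathway of which Vegfa is a known target, formed a list of 20. At an unadjusted p under 0.05, 9 were higher and 1 lower, where 19.3% of all genes were higher and 13.1% lower. The median log2 fold change of the list was 0.34, and it was -0.17 with scaling by library size alone, where all genes had -0.52. It was 0.51 without Runx1_FB_KO replicate 3 and 0.18 without CTL replicate 2. Ppargc1a, a coactivator of mitochondrial genes that can also induce Vegfa, was at 19.0 ± 8.64 CPM in CTL, against 185 ± 138 CPM in the knockout (SD, n = 3). Pdk1, which restrains the entry of pyruvate into the citrate cycle, was at 76.3 ± 6.11 and 202 ± 74.4 CPM. Both genes are also abundant in heart muscle, whose markers differed in the same libraries. On the other side, Ndrg1 was at 82.7 ± 2.74 and 56.3 ± 7.98 CPM, and Vhl, which marks HIF for breakdown, had a log2 fold change of -0.45 (SE 0.27). None of the 20 passed the adjusted threshold with all libraries in edgeR. DESeq2 called 9 higher and 1 lower, where it called 14.6% of all genes higher and 5.04% lower.

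Markers of the other cells that make or receive these factors differed in direction from list to list. Of 7 lymphatic markers 5 had positive log2 fold changes, with a median of 0.89 that was 0.13 without Runx1_FB_KO replicate 2. Prox1, a lymphatic regulator that heart muscle also expresses, had 2.21 (SE 0.52) and Mmrn1 had 1.07 (SE 0.57), while Fxyd6 and Pdpn had -1.28 and -0.66. Of 10 mural markers, cells that make angiopoietin 1, 4 had positive and 6 negative values, with a median of -0.20 that was -0.37 without Runx1_FB_KO replicate 3 and -0.01 without Runx1_FB_KO replicate 2. The channel gene Abcc9, also present in heart muscle, had 2.17 (SE 0.49) and Vtn 0.80 (SE 0.25), while Pdgfrb and Notch3 had -0.80 and -0.62. For comparison, the cardiomyocyte genes Myl3 and Tnni3 had 3.03 and 3.23, the fibroblast genes Fap and Thbs2 -0.90 and -1.42, and the macrophage genes Mertk and Csf1r -1.14 and -0.89. The fibroblast median of -1.23 was -2.32 without Runx1_FB_KO replicate 3, and the macrophage median of -0.98 was -1.49. The 6 mesothelial and epicardial markers, genes of the outer layer of the heart, had a median of -0.25, with 0 past an unadjusted p of 0.05, and the median ran from -0.70 without CTL replicate 1 to 0.35 without CTL replicate 2. Among them Upk3b and Msln had 0.13 and 0.39, and Wt1 and Lrrn4 had -0.50 and -0.44. CTL replicate 1 had the lowest sum of these 6 markers, 44.5 CPM, beside 136 to 272 CPM in the other libraries.

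**Figure D5:**
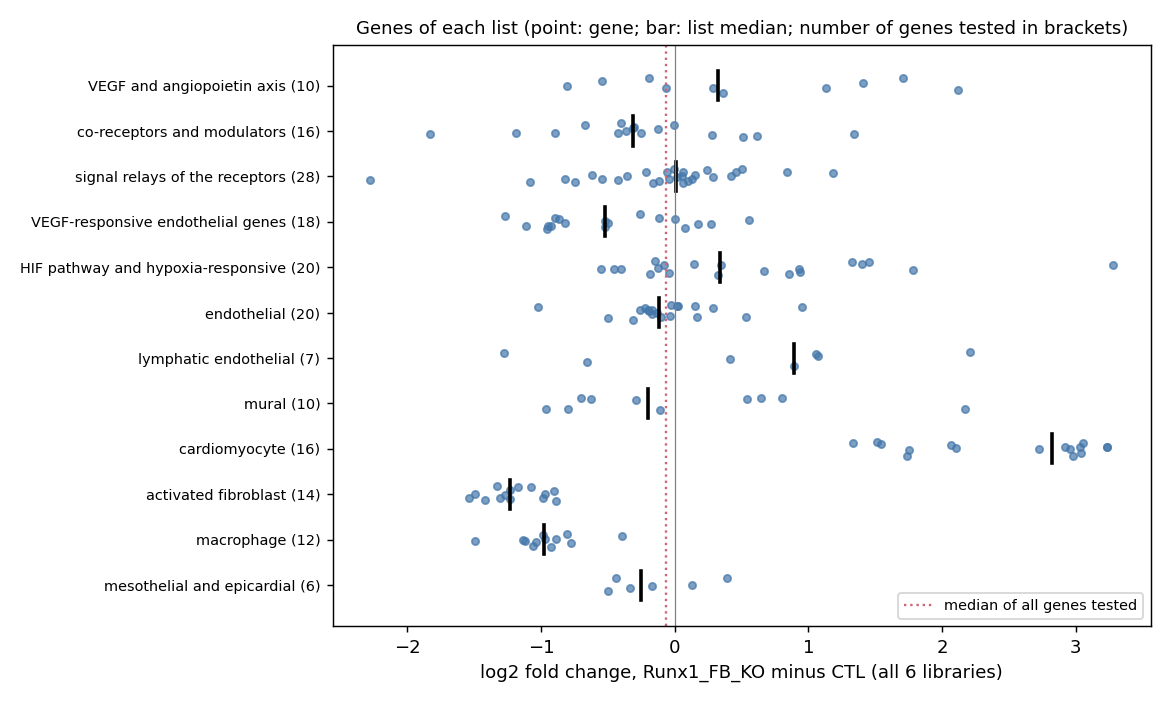
Log2 fold change (Runx1_FB_KO minus CTL, all 6 libraries) of each gene of the axis and of 11 further lists, with a point per gene, a bar at the list median and a dotted line at the median of all genes tested (-0.06). The cardiomyocyte genes lie highest, with a median of 2.82, activated fibroblast genes lowest, with -1.23, and endothelial genes near 0, with -0.11.

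The genes whose profile over the 6 libraries was most like that of a member were found among 13130 protein-coding genes by the root mean square difference of log2 CPM, each profile centred on its own mean. Nearest to Vegfa were Klhdc8a (difference 0.09), Timm10 (0.12), of the mitochondrial intermembrane space, and the mitochondrial adenylate kinase gene Ak4 (0.12). Nearest to Kdr were Pdzd3 (0.07), Ccdc189 (0.10) and Wnk4 (0.11), all at low levels with means of 0.93, 2.23 and 4.37 CPM in CTL. Near to the profile of Pgf were Gm20605 (0.04) and Ugdh (0.09), and nearest to that of Angpt1 were Fmo1 (0.09), Arvcf (0.09) and Prkdc (0.09). These distances rest on 6 libraries of 2 groups and carry no test.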

How the data were processed

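Salmon tables of 116546 transcripts were used, 1 per library. Per the submitters' processing notes, the authors used Salmon 1.5.2 and DESeq2 1.44.0 on mm10 (GRCm38). Which annotation release they used is not given in the sources used here. Estimated counts, as deposited, are often fractional, since Salmon divides reads between transcripts. The deposited TPM values are per effective length and sum to the same total in each library.

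Transcripts were matched by identifier to GENCODE M21 (GRCm38). In all, 569 did not match, and these held 0.0777% to 0.102% of reads. Estimated counts were summed per gene and rounded. After filterByExpr, 14237 genes were scaled by TMM (factors 0.732 to 1.214) and tested with edgeR 4.0.16 by quasi-likelihood with genotype as the single term, p-values adjusted by Benjamini-Hochberg across those genes and a threshold of 0.05. Each SE was taken as the size of the log2 fold change over the root of its F. Log2 CPM used a prior count of 2. A marker sum adds the CPM of the genes of a list. The fit was tested on simulated data. One listed gene carried an older symbol in the annotation (Ero1l for Ero1a).

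The 10 genes and all lists were chosen with earlier results of these data known. Text names all 10 genes and Runx1, every co-receptor or modulator, the 2 genes of the smallest p in each direction of each other list, and the 3 nearest profiles of 4 members, of which 1 is not reported here. Plvap was named after its value was seen.

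Alternatives were RLE or library size scaling, sex as a covariate, a block for replicate number, no filter, CPM of at least 1 in 3 libraries, an effective length offset, omission of mitochondrially encoded genes, DESeq2 1.42.0, limma-voom (limma 3.58.1), a threshold of 0.1, and each library left out.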

Additional observations from a re-analysis of the deposited data

How the results depend on the processing

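The count of genes called was 0 with all 6 libraries in edgeR and stayed 0 with sex as a covariate, RLE or library size scaling, a CPM minimum, an effective length offset, omission of mitochondrially encoded genes and limma-voom. It was 889 with no filter (4 of the 10 axis genes), 2810 with DESeq2 (4 of the 10) and 2311 at a threshold of 0.1 (4 of the 10), and those 4 were Vegfa, Vegfb, Flt1 and Kdr each time. With 1 library left out it ran from 0 to 6947 genes and from 0 to 5 axis genes, and was above 0 only without Runx1_FB_KO replicate 3. With no filter, 4.21% of genes were called higher and 0.193% lower.

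Directions held under all 16 alternatives for Vegfa (1.18 to 1.97), Vegfb (1.55 to 2.52), Flt1 (0.61 to 1.39), Kdr (0.89 to 1.68), Pgf (-0.98 to -0.35) and Angpt2 (-1.21 to -0.54). With library size alone Angpt1, Tek, Adamts3, Dll4, Msln, Upk3b, Fmo1, Arvcf and Prkdc turned to -0.215, -0.122, -0.177, -0.181, -0.095, -0.346, -0.206, -0.293 and -0.118. With the effective length offset Fmo1 and Arvcf had -0.049 and -0.384. Tie1 had 0.023 with RLE and 0.025 with DESeq2, and Sema3c 0.305 with sex as a covariate and 0.018 with limma-voom. Lrrn4 had 0.209 with sex as a covariate. With 1 library left out the values ran from -0.378 to 0.0 for Vegfc, -0.186 to 0.071 for Flt4, -0.047 to 0.051 for Tie1, -0.46 to 0.421 for Sema3c, -0.081 to 1.376 for Msln, -0.343 to 0.899 for Upk3b, -0.866 to 0.025 for Lrrn4 and -0.021 to 0.366 for Arvcf. The cause was not tested.

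The replicate numbers were not taken as pairs: deviations from the group means correlated at -0.051, 0.113 and 0.081 for replicates 1, 2 and 3, and not every library was nearest to its own number. With the replicate block edgeR called 0 genes and 0 of the 10, Vegfa had 1.67 and Sema3c 0.004. The ratios kept their direction under each alternative, and with the replicate block (sign flips of 3 differences) each had an exact p of 0.25, the smallest that 3 can give. Angpt4, with 0.0 to 49.0 estimated reads per library, had an SE of 0.97.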
